A study of Mus musculus with 60 samples.

Results

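The transcriptomes of single mouse 8-cell embryos made by nuclear transfer (NT) were compared with those of 8-cell embryos taken from mated females, over the autosomal genes of one table of RPKM values (reads per kilobase of transcript, scaled to the depth of the library). The comparison used 9 of the 60 libraries of the series, 3 from in vivo embryos and 6 from NT embryos, and all NT libraries were taken as 1 group. The in vivo embryos came from superovulated C57BL/6 females mated to DBA2 males. The NT embryos carried nuclei of BDF1 donors in enucleated oocytes of BDF1 females, so that all 9 embryos had the BDF1 background. Of the NT libraries, 3 (NTC) had a cumulus cell of an adult female as donor and 3 (NTM) had a cultured, serum-starved mouse embryonic fibroblast (MEF). Every NT embryo was activated with strontium chloride and cytochalasin B in the presence of Scriptaid, an inhibitor of histone deacetylases, and was then grown in culture, whereas the in vivo embryos developed in the oviduct until collection. The effects of nuclear transfer, of activation without fertilization, of the inhibitor, of culture and of the oocyte strain therefore cannot be told apart here. Each library was 1 embryo chosen by its morphology. The table listed 27238 genes, of which 25848 were autosomal, and 9184 autosomal genes reached a mean of 0.5 RPKM over the 9 libraries and were tested.

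At the 8-cell stage the mouse embryo runs on transcripts of its own genome, the transcripts stored in the oocyte are largely gone, and the blastomeres are about to flatten against each other and become polar. The p53 protein is a transcription factor that is held at low levels by Mdm2 and that, after DNA damage and other stresses, switches on genes that stop the cell cycle or promote cell death. Zinc finger proteins of the KRAB class are repressors that often lie in clusters of near-identical genes, and many of them silence transposable elements through Trim28.

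By an estimate from the steps of the RPKM values, the 9 libraries held 5758141 to 25632956 reads on genes. A value made of 3 reads, the upper limit that a count of 0 allows, was 0.0585 to 0.261 RPKM for a gene of 2000 nt, and this covers counting error only. The in vivo libraries 1, 2 and 3 held 5859, 5525 and 5196 autosomal genes of at least 1 RPKM, and the NT libraries held 6299 to 7650, so that the groups did not overlap (6948 ± 445 against 5527 ± 332, SD, n = 6 and 3, exact two-sided permutation p = 0.0238, the smallest that 84 arrangements allow). Without any 1 of the in vivo libraries no arrangement can pass 0.05. Genes of the mitochondrial genome took 28.5% to 41.0% of the in vivo reads and 28.6% to 41.9% of the NT reads (exact two-sided permutation p = 0.738). Markers of cleavage embryos and morulas (Pou5f1, Nanog, Tfap2c, Sall4, Cdx2 and 7 more) had a sum of 414 to 502 RPKM in vivo and 170 to 362 RPKM in NT. The 9 oocyte and zygote markers summed to 44.6 to 130 RPKM in vivo and 18.7 to 50.3 RPKM in NT. For 5 markers of the 2-cell embryo the sum was 0 to 0.655 RPKM in vivo and 1.12 to 21.3 RPKM in NT. The sum of 31 cumulus markers was 5.25 to 9.89 RPKM in vivo and 5.80 to 66.6 RPKM in NT, against 1908 to 3501 RPKM in cumulus cells, and 13 of them, Lhcgr, Fshr and Cyp19a1 among them, were at 0 in all 9 libraries. The 32 autosomal fibroblast markers summed to 1.46 to 2.84 RPKM in vivo and 2.27 to 26.5 RPKM in NT, against 12273 to 17005 RPKM in MEFs, with Thy1, Col3a1 and Acta2 among 10 that were at 0 throughout. The Y-linked genes Ddx3y, Eif2s3y, Kdm5d and Uty summed to 38.1 and 33.2 RPKM in NTM libraries 1 and 2 and to at most 0.0344 RPKM in the other 7 libraries. Fewer cells of a kind and less RNA per cell cannot be told apart in a library made from a whole embryo.

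Of the 9184 autosomal genes, 220 (2.4%) differed between NT and in vivo embryos at an adjusted p under 0.05 (limma, Benjamini-Hochberg over all genes of the table) and a difference of at least 1 on the log2(RPKM + 1) scale. NT embryos were higher at 160 genes (1.74%) and lower at 60 (0.653%). The higher genes had a median in vivo mean of 2 RPKM against 19.8 RPKM in NT, and 53 of the 160 were under a mean of 1 RPKM in vivo. The lower genes had a median in vivo mean of 82.9 RPKM against 15.8 RPKM. The values of the 3 in vivo and 6 NT libraries did not overlap at 216 of the 220 genes, whereas over all tested genes this was so for 1112 (12.1%). The median difference of all tested genes was 0.44, and 6254 of them (68.1%) lay above 0, so the centre of the distribution was itself above 0. After median-ratio scaling the median was 0.22, 58.9% lay above 0, all 220 genes kept their sign, and 111 genes were called higher and 149 lower (42.7% higher, against 72.7%). With only 3 in vivo embryos the number of calls rested on each of them: it was 53, 58 and 50 without in vivo library 1, 2 and 3, and 126 and 123 without NTM library 1 and 2. The filter took the mean over all libraries, so a gene low in vivo could pass it through its NT values. With no filter on low values 16329 genes were tested and their median difference was 0.14. In that fit 19 were called, none of them among the p53 targets, the ribosomal proteins, the glutathione genes or the chromosome 4 genes described below.

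**Figure D1:**
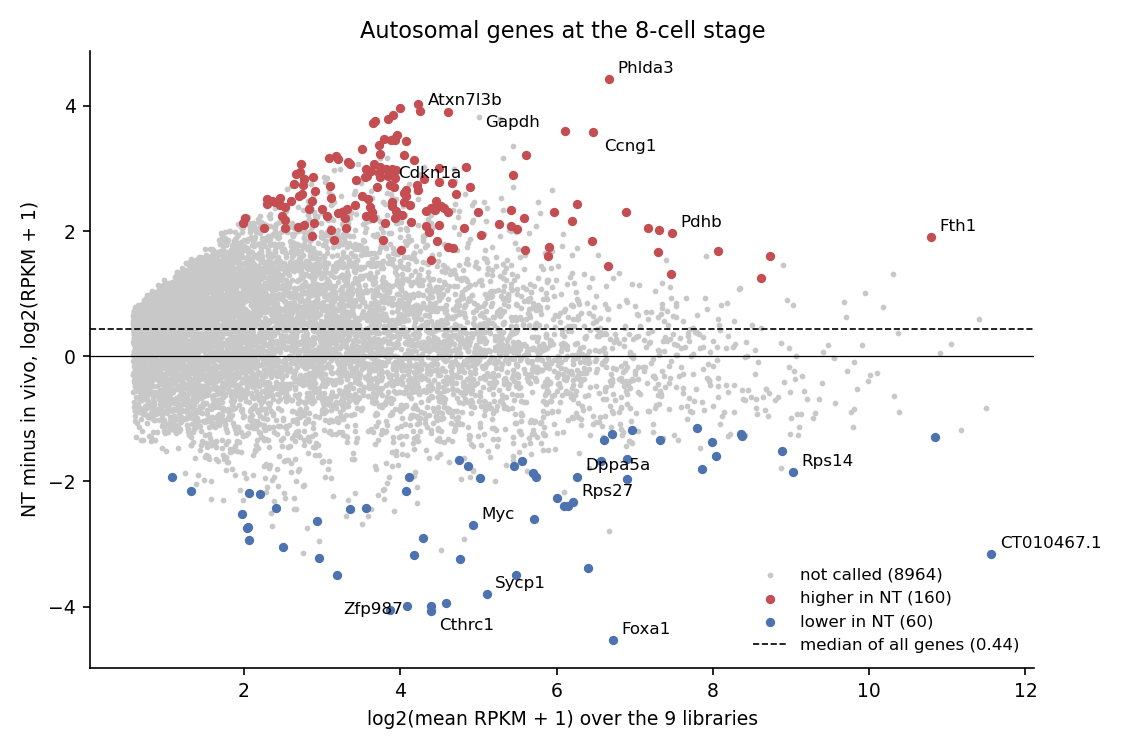
Difference between the 6 NT and 3 in vivo 8-cell embryos on the log2(RPKM + 1) scale (vertical axis) against the log2 mean RPKM of the 9 libraries (horizontal axis), 1 point per tested autosomal gene. The 160 genes called higher (red) lie mostly at low to middle levels and the 60 called lower (blue) extend to the most abundant transcripts, and the dashed line marks the median of all genes at 0.44.

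The largest rise among the called genes was that of Phlda3, a p53 target that restrains the kinase Akt (4.43 ± 0.72, log2 difference ± SE). Atxn7l3b, a gene related to a subunit of a histone deubiquitinating module (ENSMUSG00000074748, GRCm38 chromosome 10, 112925430 to 112929001, minus strand), was at 1.56, 0.324 and 0.675 RPKM in the in vivo libraries and at 18.1, 26.8 and 39.3 RPKM (lowest, median, highest) in NT. It was the autosomal protein-coding gene with the smallest adjusted p (difference 3.91 ± 0.43, limma adjusted p = 0.00113). Ska3, which couples kinetochores to microtubules, was at 0.278, 0.278 and 0.763 RPKM in vivo and at 9.61 to 32.9 RPKM in NT (3.78 ± 0.46, limma adjusted p = 0.00251). Every NT embryo was thus far above every in vivo embryo for both genes. Atxn7l3b, Ska3 and Cthrc1 stayed called under all 23 alternatives tried, which were run for the 46 called genes that the naming rule gave.

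The other genes of large rise included metabolic enzymes. Pmvk, an enzyme of the mevalonate pathway, was listed at 0 in 2 in vivo libraries and at 0.253 RPKM in the other, and at 0.873, 22 and 45.3 RPKM (lowest, median, highest) in NT (3.85 ± 0.80, limma adjusted p = 0.0253). Akr1c14, an aldo-keto reductase, was at 0.964, 0 and 0.522 RPKM in vivo and at 1.86, 41.1 and 62.9 RPKM in NT (3.90 ± 0.92, limma adjusted p = 0.0397). In both, 1 or 2 NT libraries lay close to the in vivo level and the rest far above it. Gapdh, the glycolytic dehydrogenase often used as a reference gene, was at 3.47, 1.11 and 14.1 RPKM in vivo and at 20.4 to 253 RPKM in NT (3.59 ± 0.82, limma adjusted p = 0.0358). Of the 150-base stretches of its transcripts, 18.1% also occur in transcripts of other annotated genes. Tmem41a, a membrane protein gene, rose from 0, 0.0355 and 0.761 RPKM to 1.81, 33.2 and 42.2 RPKM (lowest, median, highest), a difference of 4.02 ± 0.77. Cast, the inhibitor of calpain proteases, rose from 0.0724, 0.150 and 1.49 RPKM to 3.65 to 46.9 RPKM (3.53 ± 0.71). The methyltransferase-like gene Mettl4 differed by 3.46 ± 0.72, and the zinc finger gene Zfp72, which was at or under 0.0296 RPKM in every in vivo embryo and at 0.923 to 44.3 RPKM in NT, by 3.97 ± 0.83.

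Targets of p53 were the list with the highest median. Of 32 genes on the list 27 were tested, 7 were called higher (25.9%, against 1.74% of all genes) and none lower, 25 of 27 lay above 0, and the median was 1.69 against 0.44 for all genes. The values of the 2 groups did not overlap at 12 of the 27, all higher in NT. Over all genes 8.86% were higher in NT without overlap. An unadjusted p under 0.05 was reached by 14, against 13.7% of all genes that were higher in this way. The 7 were Phlda3, Ccng1, Pmaip1, Plk2, Cdkn1a, Sesn2 and Aen. They cover cell cycle arrest (Cdkn1a), mitotic and growth control (Ccng1, Plk2), death (Pmaip1, Aen), Akt (Phlda3) and the response to amino acid and oxidative stress (Sesn2). The 7 genes lie on 7 different chromosomes. RefSeq promoters (GRCm38.p6) were read for all but Pmaip1, 8 windows of 250 bases before a start site in all. A match to the consensus p53 decamer, which is its own reverse complement, was held by 3 of these 8 promoters (37.5%). It was held by 9 of the 32 promoters read for the whole list (28.1%), against 7.13% of all 32851 promoters read. Cdkn1a and Aen each have a second promoter in the table without a match. The list consists of p53 targets, so its share of matches says nothing about these embryos. The decamer is the unit that p53 binds, and a match is only a description of the letters. In the 3 promoters below, capitals mark each match to the decamer.
Cdkn1a (chr17:29090729-29090978, plus strand): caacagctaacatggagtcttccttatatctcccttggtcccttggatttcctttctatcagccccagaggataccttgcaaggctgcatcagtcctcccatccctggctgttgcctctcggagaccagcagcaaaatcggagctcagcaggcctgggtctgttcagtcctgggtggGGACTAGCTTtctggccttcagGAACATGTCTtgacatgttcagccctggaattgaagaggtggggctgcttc
Ccng1 (chr11:40755287-40755536, minus strand): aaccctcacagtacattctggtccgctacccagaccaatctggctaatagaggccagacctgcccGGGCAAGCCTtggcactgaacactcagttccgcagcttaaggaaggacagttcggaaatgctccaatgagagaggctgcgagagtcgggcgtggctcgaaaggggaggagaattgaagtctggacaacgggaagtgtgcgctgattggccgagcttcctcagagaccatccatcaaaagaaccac
Aen (chr7:78895808-78896057, plus strand): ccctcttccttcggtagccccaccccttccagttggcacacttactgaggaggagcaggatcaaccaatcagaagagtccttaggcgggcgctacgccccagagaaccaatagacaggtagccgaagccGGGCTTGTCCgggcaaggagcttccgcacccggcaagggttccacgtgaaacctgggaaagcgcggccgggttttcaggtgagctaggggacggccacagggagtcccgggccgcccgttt
Cdkn1a held 2 matches, beginning 73 and 51 bases before the start site, Ccng1 held 1 at 185 bases and Aen 1 at 121 bases. The windows of Phlda3, Plk2 and Sesn2 held none.

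Phlda3 (ENSMUSG00000041801, GRCm38 chromosome 1, 135766119 to 135769136, plus strand) was at 0.224, 24.6 and 6.63 RPKM in the in vivo libraries and at 57.4, 129 and 238 RPKM (lowest, median, highest) in NT (limma adjusted p = 0.0125). The in vivo embryos spread widely, yet the highest of them was below the lowest NT embryo. Ccng1, which encodes cyclin G1 (ENSMUSG00000020326, chromosome 11, 40748552 to 40755311, minus strand), was at 7.96, 23.9 and 2.99 RPKM in vivo and at 56.2, 117 and 239 RPKM in NT (3.58 ± 0.54, limma adjusted p = 0.00844). Cdkn1a, which encodes the cyclin-dependent kinase inhibitor p21 (ENSMUSG00000023067, chromosome 17, 29090976 to 29100727, plus strand), was at 1.13, 0.977 and 4.81 RPKM in vivo and at 10.6, 19.4 and 27.2 RPKM in NT (2.74 ± 0.49, limma adjusted p = 0.0146). For all 3 genes NTC and NTM embryos were alike in lying above the in vivo range. Pmaip1, which encodes the BH3-only protein Noxa, was listed at 0 in in vivo library 1, was at 1.99 and 0.521 RPKM in the other 2, and was at 5.97 to 50.8 RPKM in NT (3.46 ± 0.60). Plk2, a Polo-like kinase, was at 0.0748 to 1.23 RPKM in vivo and 3.22 to 38.0 RPKM in NT (3.38 ± 0.64). Sesn2, which encodes sestrin 2, was at 1.67 to 9.17 RPKM against 18.3 to 48.1 RPKM (2.34 ± 0.48), and Aen, an exonuclease of apoptosis, at 0.181 to 2.37 RPKM against 5.43 to 10.6 RPKM (2.09 ± 0.49).

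Other members missed the threshold. Mdm2, both target and inhibitor of p53, was at 10.3, 7.36 and 6.87 RPKM in vivo and at 5.86 to 26.2 RPKM in NT, with NTM library 3 below the in vivo embryos (1.14 ± 0.48, limma adjusted p = 0.227). Bax, which permeabilizes mitochondria, was at 28.9, 29.4 and 44.8 RPKM in vivo and 8.07 to 42.6 RPKM in NT (-0.58 ± 0.53). Tigar, a fructose bisphosphatase, was at 65.5 to 116 RPKM in vivo and 62.4 to 122 RPKM in NT (0.02 ± 0.33). The 7 called members were at or under 24.6 RPKM in every in vivo embryo, whereas the values of Bax and Tigar overlapped between the groups at higher levels. The count of called p53 targets was 2, 3 and 5 without in vivo library 1, 2 and 3, and the median stayed between 1.25 and 2.58 under all alternatives.

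**Figure D2:**
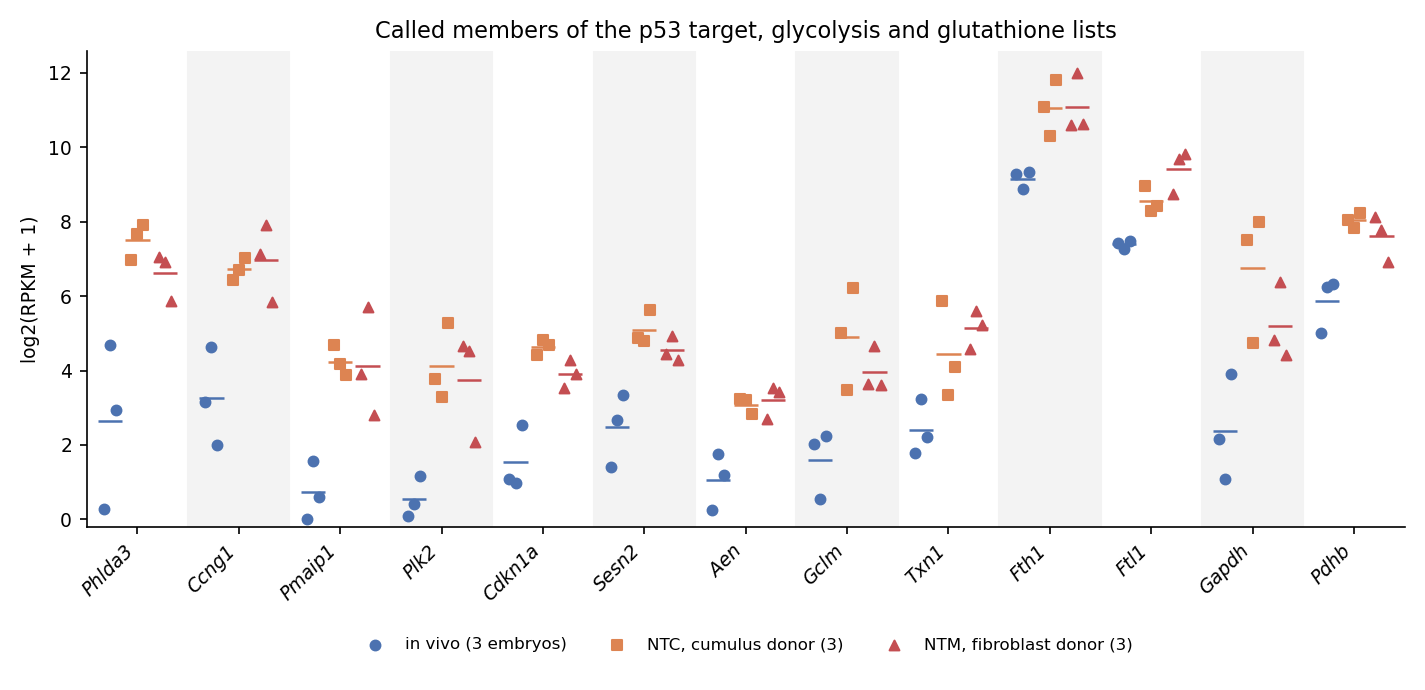
Levels on the log2(RPKM + 1) scale (vertical axis) of the called members of the p53 target, glutathione and glycolysis lists (horizontal axis), with 1 point per embryo and a bar at the mean of each group of 3. The in vivo embryos (circles) lie below all NTC (squares) and NTM (triangles) embryos for each of the 13 genes, and Fth1 is the most abundant of them.

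The list of oxidative stress and glutathione genes had 4 of 41 tested members called higher (9.76%, against 1.74% of all genes) and none lower, with a median of 0.85 against 0.44. Fth1 and Ftl1 encode the heavy and light chains of ferritin, the iron store of the cell. Fth1 (ENSMUSG00000024661, chromosome 19, 9980598 to 9985098, plus strand) was at 622, 466 and 644 RPKM in vivo and at 1251, 1873 and 4079 RPKM (lowest, median, highest) in NT (1.90 ± 0.35, limma adjusted p = 0.0165). Ftl1 was at 170, 153 and 178 RPKM in vivo and at 313 to 910 RPKM in NT (1.6 ± 0.35, limma adjusted p = 0.0292), and 23.9% of the 150-base stretches of its transcripts occur in other genes. Both ferritin chains were tightly grouped in vivo and variable among NT embryos. Gclm, the modifier subunit of the enzyme that starts glutathione synthesis, was at 3.11, 0.452 and 3.75 RPKM in vivo and 10.1 to 72.8 RPKM in NT (2.82 ± 0.63). Txn1, which encodes thioredoxin, was at 2.46, 8.45 and 3.61 RPKM against 9.14 to 57.4 RPKM (2.37 ± 0.57). The list held no higher call when any 1 in vivo library was left out, and 2 higher calls and 1 lower call after median-ratio scaling.

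In the glycolysis, pyruvate and lactate list 2 of 22 tested members were called, both higher, and the median was 0.74. For this list and the next 3, the shares over all genes are again 1.74% called higher and a median of 0.44. They were Gapdh, given above, and Pdhb, which encodes a subunit of pyruvate dehydrogenase and was at 31.1, 74.3 and 79.5 RPKM in vivo and 121 to 300.2 RPKM in NT (1.97 ± 0.37, limma adjusted p = 0.02). The integrated stress and unfolded protein list had 2 of 27 called, Sesn2 and the endoplasmic reticulum factor Sdf2l1, which was at 0.189, 4.44 and 1.24 RPKM in vivo and 9.53 to 55.8 RPKM in NT (2.85 ± 0.61). Of 24 apoptosis genes 2 were called higher, Pmaip1 and Bid. Bid, a BH3-only protein that links death receptors to mitochondria, was at 1.52, 0.394 and 1.12 RPKM in vivo and 2.84 to 40.7 RPKM in NT (2.99 ± 0.70), and its 3 NTC values (21.6 to 40.7 RPKM) lay above its 3 NTM values. Among 25 heat shock genes Hspa8, the constitutive Hsc70 chaperone, was called (23.1, 29.0 and 13.2 RPKM in vivo, 35.1 to 114 RPKM in NT, 1.75 ± 0.42), with 22.8% of its 150-base stretches shared with other genes. The abundant chaperones Hsp90aa1 (1115 to 3118 RPKM in vivo, 1505 to 3695 RPKM in NT) and Hsp90ab1 (588 to 1137 against 397 to 1091 RPKM) overlapped.

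The largest fall was that of Foxa1, a pioneer transcription factor of endoderm (ENSMUSG00000035451, chromosome 12, 57540628 to 57546916, minus strand). It was at 377, 165 and 266 RPKM in the in vivo libraries and at 0.0440, 20.8 and 50.8 RPKM (lowest, median, highest) in NT (-4.53 ± 1.07, limma adjusted p = 0.0397). NTC libraries 1 and 3 were under 1 RPKM and the other 4 NT libraries were at 12.7 to 50.8 RPKM, so that both donors held embryos with some Foxa1. Cthrc1, a secreted protein with a collagen repeat (ENSMUSG00000054196, chromosome 15, 39076932 to 39087121, plus strand), was at 43.6, 68.0 and 52.4 RPKM in vivo and at 0.601 to 4.81 RPKM in NT (-4.07 ± 0.50, limma adjusted p = 0.00251). The highest NT value was far below the lowest in vivo value, and the NTC embryos (0.601 to 1.98 RPKM) lay below the NTM embryos (3.51 to 4.81 RPKM). Sycp1, a protein of the synaptonemal complex of meiosis, was at 203, 29.9 and 39.4 RPKM in vivo and 1.32 to 13.7 RPKM in NT (-3.79 ± 0.69, limma adjusted p = 0.0156).

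Hcrt, the gene of the hypothalamic peptide orexin, was at 33.5, 38.3 and 56.8 RPKM in vivo and 0.365 to 12.7 RPKM in NT (-2.91 ± 0.66). Acp5, an acid phosphatase, was at 7.85, 10 and 6.95 RPKM in vivo, was listed at 0 in the 3 NTC libraries and was at 0.108 to 2.16 RPKM in the NTM libraries (-2.74 ± 0.53). Myc, the growth-promoting transcription factor, was at 90.0, 58.2 and 44.8 RPKM in vivo and at 2.24, 8.41 and 28.7 RPKM (lowest, median, highest) in NT (-2.69 ± 0.66, limma adjusted p = 0.0452). The in vivo embryos were above the NT embryos in each of these. The lower gene Zfp934, a zinc finger gene of chromosome 13, was at 21.3, 39.3 and 135 RPKM in vivo and 0.330 to 19.8 RPKM in NT (-3.24 ± 0.79).

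Of the 60 lower genes, 10 lay on chromosome 4, where 638 genes were tested, and 8 of these 10 lay in 1 interval of zinc finger genes (GRCm38 4:145510759-147809788, from Zfp990 to Zfp984). This interval was chosen after its values had been seen, so no test was made on it. It held 59 genes of the table, of which 23 were tested. Of these, 8 were called lower (34.8%, against 0.653% of all genes) and none higher. Below 0 lay 18 and above 0 lay 5, whereas 68.1% of all genes lay above 0. The median was -1.70 against 0.44 for all genes. The 8 were Gm13212, Zfp980, Zfp987, Zfp989, Zfp988, Zfp985, Zfp979 and Zfp534. Promoters of 7 of them were in the RefSeq table, and their 250-base windows were 74.0% to 92.8% identical in pairs (median 80.4% over 21 pairs). The longest run that all 7 share, on the promoter strand, was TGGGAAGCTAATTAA. It occurred, on either strand, in 12 of the 32851 promoters read (0.0365%), all of them in the interval. The run was defined from the promoters of called genes, and promoters of interval genes that were not called hold it too. In 4 of the 7 promoters of called genes, printed to show how alike the genes of the cluster are, capitals mark this run.
Zfp987 (chr4:146097062-146097311, plus strand): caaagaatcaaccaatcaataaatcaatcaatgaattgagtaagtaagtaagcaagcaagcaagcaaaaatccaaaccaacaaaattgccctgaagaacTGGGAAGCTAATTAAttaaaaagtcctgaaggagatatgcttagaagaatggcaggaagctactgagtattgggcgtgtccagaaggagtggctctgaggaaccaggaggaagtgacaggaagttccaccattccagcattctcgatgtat
Zfp534 (chr4:147702632-147702881, minus strand): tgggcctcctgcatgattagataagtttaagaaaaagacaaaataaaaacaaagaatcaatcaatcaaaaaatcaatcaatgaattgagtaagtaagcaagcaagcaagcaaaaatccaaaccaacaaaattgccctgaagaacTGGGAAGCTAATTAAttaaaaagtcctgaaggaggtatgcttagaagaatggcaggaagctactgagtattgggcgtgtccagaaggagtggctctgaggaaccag
Zfp985 (chr4:147553027-147553276, plus strand): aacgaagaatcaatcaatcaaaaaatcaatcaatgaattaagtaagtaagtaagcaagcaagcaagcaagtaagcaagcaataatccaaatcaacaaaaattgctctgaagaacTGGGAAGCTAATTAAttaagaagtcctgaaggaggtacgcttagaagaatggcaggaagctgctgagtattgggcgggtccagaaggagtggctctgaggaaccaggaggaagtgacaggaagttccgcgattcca
Gm13212 (chr4:145584950-145585199, plus strand): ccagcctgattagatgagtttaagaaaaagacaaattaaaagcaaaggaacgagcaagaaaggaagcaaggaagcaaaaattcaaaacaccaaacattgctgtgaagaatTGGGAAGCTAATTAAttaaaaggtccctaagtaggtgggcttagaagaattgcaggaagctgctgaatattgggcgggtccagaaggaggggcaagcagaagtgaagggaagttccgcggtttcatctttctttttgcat
Zfp987 and Zfp985 were 88.8% identical over the window, whereas Gm13212 was 74.0% to 76.0% identical to the other 6.

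The 8 called genes were at 7.99 to 208 RPKM in the in vivo embryos and at 0 to 61.0 RPKM in NT embryos. Zfp987 was at 64.3, 41.5 and 39.1 RPKM in vivo. It was at 0.0900, 0.0589 and 0.246 RPKM in the 3 NTC libraries and at 13.3, 21.1 and 0.686 RPKM in the 3 NTM libraries (-3.99 ± 0.94, limma adjusted p = 0.0396). Zfp534 gave a like order, with 95.3, 48.2 and 29.3 RPKM in vivo, 0.0237 to 0.178 RPKM in NTC and 16.5, 13.4 and 3.85 RPKM in NTM (-3.95 ± 0.92). For both genes the NTC embryos were near the limit of detection, and NTM libraries 1 and 2, the ones with Y-linked reads, were the highest of the NT embryos. Zfp985 was at 74.2, 151 and 104 RPKM in vivo and at 1.39 to 25.9 RPKM in NT, with no such order (-3.49 ± 0.60, limma adjusted p = 0.0146). Gm13212 was evenly expressed in vivo, at 180, 203 and 200 RPKM, and at 2.19 to 61.0 RPKM in NT (-3.39 ± 0.81). Zfp989 (-3.99 ± 0.86), Zfp988 (-3.18 ± 0.69), Zfp980 (-2.45 ± 0.58) and Zfp979 (-2.39 ± 0.48) completed the group. Zfp990, Znf41-ps and Zfp991 were low in vivo and 0.64 to 1.14 above it in NT, without passing the test. Up to 54.2% of the 150-base stretches of a called gene's transcripts occur in other genes (Zfp987), and none for Zfp985, so reads may have been split between copies. The calls rested on all in vivo embryos, since 2, 0 and 0 were left without in vivo library 1, 2 and 3, and 0 without in vivo library 3 and NTM library 3, the 2 of lowest depth. Trim28, the partner of KRAB zinc finger proteins, was at 40.0, 38.1 and 19 RPKM in vivo and 13.4 to 45.3 RPKM in NT (-0.36 ± 0.44).

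**Figure D3:**
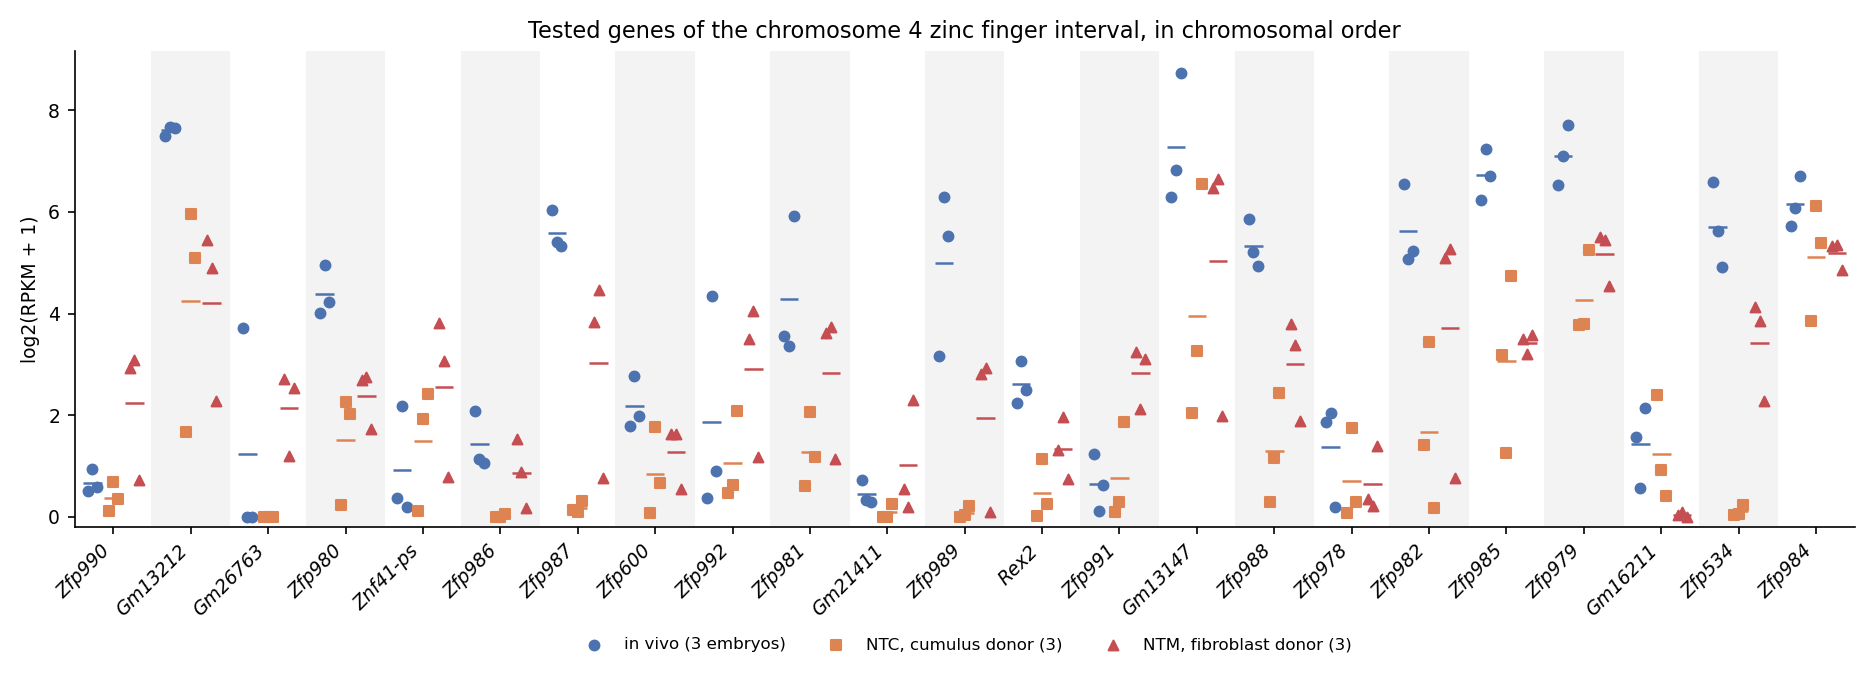
Levels on the log2(RPKM + 1) scale (vertical axis) of the 23 tested genes of the chromosome 4 zinc finger interval in chromosomal order (horizontal axis), with 1 point per embryo and a bar at the mean of each group of 3. In vivo embryos (circles) are highest for the 8 called genes, and NTC embryos (squares) are close to 0 for Zfp987, Zfp989 and Zfp534.

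Cytosolic ribosomal protein genes, which encode the protein part of the ribosome, were mostly lower in NT. Of 73 tested genes 9 were called lower (12.3%, against 0.653% of all genes) and none higher, 63 lay below 0, and the median was -0.74. The groups did not overlap at 39 genes that were lower in NT and at 1 that was higher, against 3.24% and 8.86% of all genes. An unadjusted p under 0.05 in the lower direction was reached by 33, against 4.64% of all genes. Rps27 (ENSMUSG00000090733, chromosome 3, 90212522 to 90213651, minus strand) was at 146, 143 and 176 RPKM in vivo and at 20.1, 31.2 and 47.1 RPKM (lowest, median, highest) in NT (-2.33 ± 0.38, limma adjusted p = 0.0125). Rps14 was at 941, 902 and 1131 RPKM in vivo and 184 to 426 RPKM in NT (-1.86 ± 0.29, limma adjusted p = 0.0112). Rps25 was at 490, 443 and 477 RPKM against 103 to 212 RPKM (-1.60 ± 0.29), and Rpl41 at 451, 331 and 527 RPKM against 75.4 to 206 RPKM (-1.81 ± 0.34). The in vivo values were close to each other in all 4 genes. The other calls included Rplp1, Rps23, Rpl7 and Rpl32. Rplp0, the stalk protein, went the other way without passing the test (1.32, limma adjusted p = 0.107).

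The genes of this list took 5.33%, 5.69% and 6.84% of the nuclear-encoded reads in the in vivo libraries and 3.42% to 4.85% in NT (4.24 ± 0.61 against 5.95 ± 0.79, SD, n = 6 and 3). After median-ratio scaling 25 genes were called lower and 68 lay below 0. Without in vivo library 1, 2 or 3 the number called was 2, 3 or 2. Mitochondrial ribosomal proteins (70 tested, median 0.00), nuclear-encoded respiratory chain subunits (68, -0.15), translation initiation factors (38, -0.10), proteasome subunits (32, 0.21) and nucleolar and ribosome biogenesis factors (51, 0.03) had no call. Npm1, a nucleolar chaperone of that last list, was at 3578, 4435 and 2777 RPKM in vivo and 913 to 2340 RPKM in NT, with no overlap (-1.17 ± 0.31, limma adjusted p = 0.0615).

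The most abundant of the lower transcripts was that of the ribosomal RNA gene CT010467.1 on chromosome 17 (39846353 to 39848827, minus strand), which was at 5809, 8515 and 7554 RPKM in vivo and 621 to 2005 RPKM in NT (-3.16 ± 0.33, limma adjusted p = 0.00113). It took 1.27% to 1.88% of the in vivo reads and 0.136% to 0.448% of the NT reads. Its share moved with the groups, and its part in the difference of other genes was not tested.

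In the lists of this paragraph and the next 3, at most 1 member of each was called in the reported fit. Over all genes 1.74% were called higher and 0.653% lower. Of 26 pluripotency genes only Dppa5a, an RNA-binding protein of the early embryo, was called. It was at 138, 129 and 164 RPKM in vivo and 14.5 to 70.2 RPKM in NT (-1.92 ± 0.46, limma adjusted p = 0.0408). Dppa2 (73.0 to 181 RPKM in vivo, 119 to 233 in NT) and Dppa4 (117 to 207 against 74.3 to 209 RPKM) overlapped. Of 38 maternal genes Btg4, which recruits the deadenylase that clears maternal transcripts, was called lower, at 42.6, 10.6 and 9.07 RPKM in vivo, 10.8 RPKM in NTC library 1 and at or under 0.0298 RPKM in the other 5 NT libraries (-3.50 ± 0.81). The maternal list had 10 of its 38 tested members above 0 and a median of -0.66, with 5 called lower after median-ratio scaling. The cyclin Ccnb1 was at 278 to 603 RPKM in vivo and 101 to 256 RPKM in NT without passing the test. Dppa3 (Stella) was at 90.0 to 132 RPKM against 24.1 to 101 RPKM.

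Hippo pathway genes, which tell outer from inner cells, lay above 0 at all 14 tested members, against 68.1% of all genes (median 0.93 against 0.44). After median-ratio scaling 12 of the 14 did. With no filter on low values 17 of 19 lay above 0, with a median of 0.53 against 0.14 for all genes. The angiomotin Amotl2, which holds the coactivator Yap in the cytoplasm, was called, at 0.0222, 2.85 and 3.07 RPKM in vivo and 8.09 to 22.5 RPKM in NT (2.55 ± 0.54, limma adjusted p = 0.0272). Among 37 compaction and polarity genes the kinase Mark3 was called, at 11.5, 4.06 and 2.39 RPKM in vivo and 15.7 to 36.3 RPKM in NT (2.09 ± 0.48). None of 18 trophectoderm genes was called. Krt18, a keratin of that lineage, was at 0.862 to 2.5 RPKM in vivo and 3.49 to 56.9 RPKM in NT (2.51 ± 0.72, limma adjusted p = 0.0856), and Hand1 overlapped. None of 8 primitive endoderm genes was called, with Gata6 at 20 to 59.8 RPKM in vivo and 7.08 to 62.9 RPKM in NT, and Gata4 at 3.69 to 14.4 against 0 to 24 RPKM. Of the 27 genes of growth factor signalling Smad4, the shared mediator of TGF-beta signals, was called, at 7.68, 3.57 and 2.60 RPKM in vivo and 17.8 to 40.7 RPKM in NT (2.32 ± 0.44).

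Genes imprinted through H3K27me3, a silencing mark, on the maternal allele lay above 0 at all 11 tested members, against 68.1% of all genes. The median was 1.01 against 0.44. With no filter on low values 14 of 15 lay above 0, with a median of 0.78 against 0.14 for all genes. Only Jade1 was called, a subunit of a histone acetyltransferase complex, at 0.0411, 0 and 0.589 RPKM in vivo and 2.4 to 18.8 RPKM in NT (2.83 ± 0.57, limma adjusted p = 0.0222). Epas1, the hypoxia-inducible factor HIF-2 alpha, was at 9.51, 1.97 and 2.99 RPKM in vivo and 7.77 to 70.3 RPKM in NT (2.60 ± 0.68, limma adjusted p = 0.0621), and Bbx at 4.32 to 10.1 against 10.2 to 72.6 RPKM. Of 20 genes imprinted through DNA methylation none was called (median 0.78), with Mcts2 at 9.77 to 12.3 RPKM in vivo and 17.4 to 33.1 RPKM in NT, and Snrpn overlapping. The 21 transient genes of the 2-cell stage had no call either. Obox6 was at 809 to 1163 RPKM in vivo and 339 to 892 RPKM in NT, and Gm8300 was at 0.634 to 3.86 RPKM in vivo, 31.4 to 166 RPKM in NTC and 0.563 to 63.8 RPKM in NTM.

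Among chromatin genes none was called in the lists of DNA methylation (18 tested, median 0.62), H3K9 methylation (17, 0.45), histone acetylation (33, 0.31) and Polycomb and Trithorax (27, 0.05). Ctcf was at 11 to 24.2 RPKM in vivo and 20.3 to 43.4 RPKM in NT, Hdac2 at 47.8 to 105 against 59.1 to 113 RPKM, and Suz12 at 479 to 593 against 342 to 646 RPKM. None of 53 cell cycle genes was called (median 0.27), with the cohesin subunit Rad21 at 426 to 499 RPKM in vivo and 246 to 424 RPKM in NT. Of 42 spliceosome genes only Prpf4 was called (0.357 to 1.43 RPKM in vivo, 4.83 to 17.4 RPKM in NT, 2.53 ± 0.50). Sterol and fatty acid genes had Pmvk as the only call of 29, interferon and innate immunity genes Ifi27 as the only call of 13 (0.238 to 0.855 RPKM in vivo, 3.52 to 20.1 RPKM in NT, 2.48 ± 0.56), and lysosome and autophagy genes none of 38. Only 6 of 31 cumulus and 5 of 33 fibroblast identity genes were high enough to test, and none was called. Of the 64 replication-dependent histone genes 4 were tested and none was called.

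**Figure D4:**
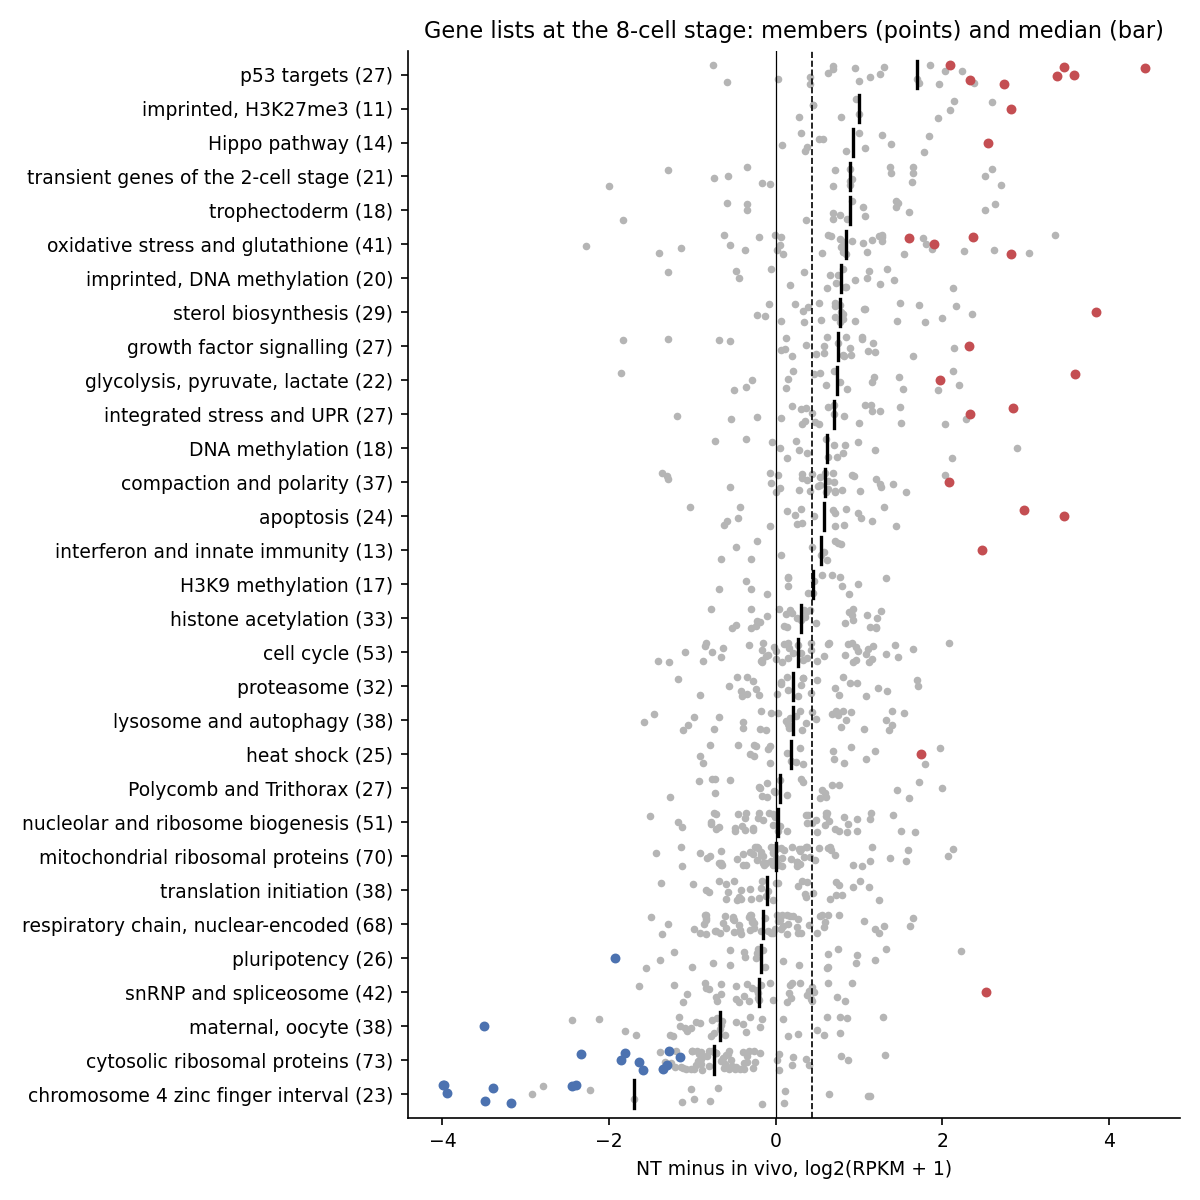
Differences between NT and in vivo 8-cell embryos on the log2(RPKM + 1) scale (horizontal axis) for the tested members (points) of each gene list with at least 10 of them (vertical axis, number in brackets), with called members in red or blue and the list median as a bar. The p53 targets have the highest median (1.69) and the chromosome 4 interval the lowest (-1.70), beside 0.44 for all genes (dashed line).

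Areg, Gsto1 and Tbx3 were chosen because earlier results of these data had named them in comparisons of the donors. Areg, an EGF receptor ligand, was listed at 0 in all 3 in vivo libraries and in NTC libraries 2 and 3, and was at 0.143 to 5.23 RPKM in the other 4 (1.17 ± 0.66, limma adjusted p = 0.360). Gsto1, a glutathione transferase, was at 2.38, 14.8 and 0.175 RPKM in vivo, at 0.303 to 3.02 RPKM in NTC and at 26.1 to 72.6 RPKM in NTM (1.16 ± 1.22). Tbx3, a T-box factor, was at 6.48 to 9.38 RPKM in vivo, at 0.155 to 2.27 RPKM in NTC and at 23.2 to 26.2 RPKM in NTM (-0.36 ± 1.02). For Tbx3 the NTC embryos lay below and the NTM embryos above all in vivo embryos, and for Gsto1 the NTM embryos lay above them while the NTC embryos overlapped with them.

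To see how far the 220 genes followed the NT embryos to the next stage, they were read in morulas, for which another 3 in vivo and 6 NT libraries exist. Of 219 genes tested there 201 (91.8%) had the same sign as at the 8-cell stage, and 11 were called in the same direction. Of all 7940 genes tested at both stages, the called ones included, 64.7% had the same sign. The median difference in morulas was 0.96 for the 160 higher genes and -1.08 for the lower genes. Gapdh (3.26), Pmaip1 (3.55), Cdkn1a (2.44) and Cthrc1 (-5.08) kept differences of at least 2 on the log2 scale, whereas Phlda3 was at 1.19, Sesn2 at 0.13, Foxa1 at -0.88 and Sycp1 at 0.06. All 7 called p53 targets lay above 0 in morulas, as did 19 of the 24 tested members of the list (median 0.73). Ribosomal proteins lay below 0 at 64 of 73 genes (median -0.61), and all 8 called genes of the chromosome 4 interval had a lower mean in NT morulas than in in vivo morulas. In morulas themselves 38 of 8892 autosomal genes (0.427%) were called. The interaction of NT with stage between the 8-cell embryo and the morula was called (limma) at 0 of 9218 genes (0%) and had an unadjusted p under 0.05 at 678, so no gene was shown to differ in its NT effect between these stages, which does not show that the effects were alike.

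**Figure D5:**
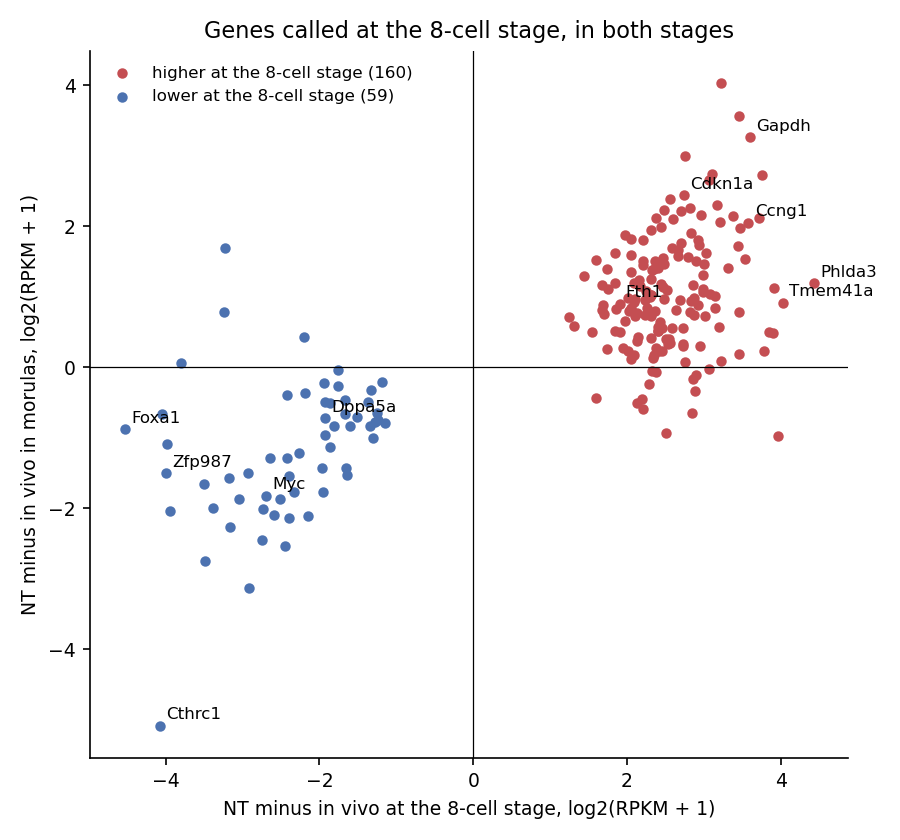
Difference between NT and in vivo embryos in morulas (vertical axis) against that at the 8-cell stage (horizontal axis), both on the log2(RPKM + 1) scale, for the called genes of the 8-cell stage that were tested in both, 1 point per gene. Most of the 160 higher genes (red) lie above 0 and most of the 59 lower genes (blue) below 0 in morulas, at smaller differences.

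The 4-cell stage before it was a different case. There 2783 of 10812 autosomal genes (25.7%) were called between NT and in vivo embryos, 2292 of them lower, and the interaction of NT with stage was called at 2125 of 10485 genes (20.3%), of which 1899 were more positive and 226 more negative at the 8-cell stage. After median-ratio scaling 986 were more positive and 479 more negative. Of 216 genes called at the 8-cell stage and tested in 4-cell embryos 151 (69.9%) had the same sign, against 52.8% of all genes tested at both stages. The share was 67.7% against 43.6% for the higher genes and 75.9% against 71.4% for the lower genes. Phlda3 (6.26), Ccng1 (3.97), Atxn7l3b (3.49) and Cthrc1 (-3.09) already differed in the same direction in 4-cell embryos on the log2 scale. Cdkn1a was at -0.82 there and at 2.74 in 8-cell embryos, a difference of 3.56 (limma adjusted p = 0.00760), and Ska3 was at -1.26 and 3.78, a difference of 5.05 (limma adjusted p = 0.000405). Hspa8 was at -5.32 in 4-cell and 1.75 in 8-cell embryos, the largest such change among the called genes named here (7.07, limma adjusted p = 4.46e-07). Ribosomal proteins had a median of -2.29 in 4-cell embryos, -0.74 in 8-cell embryos and -0.61 in morulas.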

How the data were processed

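Single embryos were amplified after poly(A) tailing of cDNA, without molecular identifiers, and sequenced. The authors deposited RPKM values, which the paper attributes to TopHat alignment and HTSeq counting. The submitters' processing notes instead name Bowtie 0.12.2 and build mm8, so the build is not settled, and coordinates here are those of GENCODE M21 and RefSeq on GRCm38. Depth was estimated from the steps of the low values (77.5% to 83.0% of them whole within the tolerance used). By this estimate the RPKM values were relative to 5758141 to 25632956 reads per library. With GENCODE M21 gene lengths the read shares of a library summed to 1.10 to 1.14 rather than 1. Depths and read shares are therefore approximate. Values were used as deposited on the log2(RPKM + 1) scale. Genes with a mean of at least 0.5 RPKM entered limma 3.58.1 (R 4.3.3; lmFit and eBayes with trend) with 1 NT term, adjusted by Benjamini-Hochberg over all genes, and a gene was called at an adjusted p under 0.05 and a log2 difference of at least 1. The fit was checked on simulated data. Interaction terms compared stages, and exact permutation tests used scipy 1.17.1. Lists were described by their counts and medians, with no test. Genes named are the 12 largest higher and 12 largest lower calls without overlap (predicted genes and pseudogenes passed over), up to 4 called members of each list, the 2 most abundant members of lists with fewer than 2 calls, and Areg, Gsto1 and Tbx3. Plk2, Aen, Mdm2, Bax, Tigar, Rplp0, Trim28, CT010467.1 and the further genes of the chromosome 4 interval were named after their values were seen. The members and lists were chosen with earlier results of these data known. The libraries were separate embryos. Genes that the naming rule gave but that the text leaves out are not reported here. Alternatives changed the pseudocount, filter, scaling, samples and model.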

Additional observations from a re-analysis of the deposited data

Results flagged for a closer look

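Among 106 sets of 6 NT values examined (named genes, detected genes and mitochondrial share), 8 held 1 library far from the rest by Dixon's ratio, where chance flags about 1 set in 20. Btg4 (ratio 0.988), Serpine2 (0.733), Hist1h1a (0.915) and Hist1h1c (0.812) were high in 1 library only: Btg4 was at 10.8 RPKM in NTC library 1 and at or under 0.0298 RPKM in the others, and Serpine2 reached 33.0 RPKM there beside a median of 3.17 RPKM. Twist2 (0.771) was at 21.2 RPKM in NTC library 3, and Dcn (1.000) at 14.3 RPKM in NTM library 3 and at 0 in all others. Atp5c1 (0.738) fell to 39.7 RPKM in NTC library 3 beside a median of 157 RPKM, and Pdhb (0.659) was lowest in NTM library 3, at 121 RPKM.

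The NT difference was not the same at the 8-cell and the 4-cell stage for 2125 genes by the interaction term (limma). Among the called genes named in the report it was more positive at the 8-cell stage, on the log2 scale, for Ska3 (5.05), Mettl4 (3.02), Akr1c14 (3.51), Rps25 (1.99), Rpl41 (3.60), Prpf4 (2.16), Dppa5a (4.27), Cdkn1a (3.56), Hspa8 (7.07), Ftl1 (1.58) and Txn1 (3.04). It was more negative for Zfp989 (-3.81), Rps14 (-1.95) and Btg4 (-4.38). For Dppa5a this came from a difference of -6.20 in 4-cell embryos that had shrunk to -1.92, and for Rpl41 from -5.41 to -1.81, whereas Rps14 moved from 0.09 to -1.86.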

How the results depend on the processing

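The number of called genes, 220 as reported, was 373 with a pseudocount of 0.1, 19 with no filter on low values, 145 with the replicate number as a block, 363 in a single fit over all 20 groups, 129 with NTC and 157 with NTM embryos alone, and 50 to 265 when 1 library was left out. In alternatives chosen after the data had been seen it was 51 without the 2 libraries holding Y-linked reads and 75 without in vivo library 3 and NTM library 3, the 2 of lowest depth. In these 2 alternatives the p53 targets held 3 and 6 calls, the ribosomal proteins 3 and 2, the glutathione genes 1 and 0, and the chromosome 4 interval 7 and 0. The fit without a filter tested 16329 genes, and the cause of the lower count was not tested. Replicate numbers did not pair the embryos: deviations of same-numbered libraries correlated at -0.04 to 0.05, and those of other numbers at -0.05 to 0.07. The interaction with the morula, called at 0 genes, was called at 3 with a pseudocount of 0.1 and at 0 to 2 when 1 library was left out. That with the 4-cell stage was called at 1465 genes after median-ratio scaling and at 1699 to 2120 with 1 library left out, within 1.5 times of the reported count. The difference in detected genes ranged from 1256 to 1588 with 1 library left out. The difference in mitochondrial share, 1.18 percentage points, ranged from -1.48 to 4.79 and was also negative without NTM replicate 3 (-0.20). Gsto1 turned to -1.0 with NTC alone, -0.0596 without the libraries holding Y-linked reads and -0.0464 without the 2 libraries of lowest depth, and Tbx3 to 1.61 with NTM alone and to 0.11 and 0.14 without NTC replicate 1 or 3, with -0.7706 as its lowest value when 1 library was left out. The 46 called genes given by the naming rule kept their direction in all 23 alternatives, and their call in 723 of these gene and setting combinations and not in 335. The calls of Atxn7l3b, Ccng1, Cthrc1, Phlda3, Rps14, Rps27 and Ska3 held whichever library was left out.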

Other observations

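Some further genes among the 160 that were higher in NT were picked one by one after their values had been seen, so they stand for no pathway. Vhl, the ligase subunit that marks hypoxia-inducible factors for degradation, was at 50.5, 47.7 and 37.8 RPKM in vivo and at 77.0 to 162 RPKM in NT (1.45 ± 0.32). Egln1, a prolyl hydroxylase, was at 3.72, 7.05 and 2.5 RPKM against 11.3 to 57.3 RPKM (2.4 ± 0.51). In morulas these differences were 1.30 for Vhl and 0.58 for Egln1. Oaz1, an antizyme, was at 240.3, 146 and 228 RPKM in vivo and at 408 to 641 RPKM in NT (1.25 ± 0.26). The kinase gene Plk3 was higher by 2.82 ± 0.58. None of the values of these 4 genes overlapped between the groups.

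Outside the autosomes, 12 of 344 tested genes of the sex chromosomes were called and all 12 were lower in NT, among them Xlr5a (-3.12), Rpl36a (-2.34), Rpl10 (-1.64), Rps4x (-1.68) and Hprt (-1.26). Of the autosomal genes 0.653% were called lower and 1.74% higher. Xist, the RNA that coats the inactive X, was at 0.117, 0.202 and 4.54 RPKM in vivo and at 1.34 to 17.4 RPKM in NT. The 3 in vivo embryos held at most 0.0331 RPKM over 4 Y-linked genes.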
